A study of Mus musculus with 93 samples.

Results

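The comparison described here set the livers of wild-type (WT) mice that had swallowed a C18:3 triglyceride against the livers of WT control mice. Its members were chosen by title: the 5 WT arrays titled C18:3 and the 4 WT arrays titled control2, 9 of the 93 arrays of the series, each from 1 mouse. Trilinolenin (C18:3) is a synthetic triglyceride with linolenic acid as its only fatty acid. The WT mice were male 129S1/SvImJ mice of 8 to 24 weeks that were fasted for 4 hours, received 400 µl by gavage and were killed 6 hours later. Control mice received the same volume of carboxymethyl cellulose, which holds no fat, so that the comparison is of a fat dose with no fat and not of 1 fat with another. The experiments with C18:3, C18:2 and C10:0 were done a few months after the rest of the study, and the control2 mice are the controls of these 3 triglycerides. For comparison, the same contrast was measured in PPARα -/- mice (5 C18:3 and 4 control2 livers), which carry no PPARα and are of another substrain, 129S4/SvJae. WT mice were also given trilinolein (C18:2, 4 livers) or tridecanoin (C10:0, 5 livers) in this later run, and in the first run the PPARα agonist WY14643 (4 livers), the C22:6 triglyceride of DHA (5 livers) or the first control (3 livers). All were male and were fasted, gavaged and killed at the same times, and the labels give 12 to 20 weeks as the age of the WY14643 and first control mice and 8 to 24 weeks for the others.

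PPARα is a nuclear receptor that binds fatty acids and, paired with the retinoid X receptor, switches on genes of fatty acid breakdown in the liver. Its targets cover the carnitine shuttle that brings fatty acids into mitochondria, β-oxidation in mitochondria and peroxisomes, ω-oxidation by Cyp4a enzymes, and thioesterases that split acyl-CoA into free fatty acid and CoA. Polyunsaturated fatty acids are known both as ligands of PPARα and as inhibitors of the lipogenic factor SREBP-1c. α-Linolenic acid is the plant-derived n-3 fatty acid from which EPA and DHA can be made, but the labels do not say which isomer of linolenic acid the triglyceride held.

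Signals are log2 values of the deposited intensities, and a change is the mean log2 signal of the C18:3 livers minus that of the control2 livers. A gene was called where limma's moderated test gave an adjusted p under 0.05 over 11412 probesets, in a fit of the 37 arrays of the later run. C18:3 gave 134 genes that rose and 61 that fell, 2.01% and 0.916% of the 6661 genes measured, or 195 in all (2.93%). The list counts below are to be read beside these shares. An unadjusted p under 0.05 was reached by 1021 genes (15.3%). At the threshold used in the study, an unadjusted p under 0.01, the counts were 269 higher (4.04%) and 185 lower (2.78%). Of the risers, 51 rose more than 2-fold by fitted change and 111 had all 5 C18:3 livers above all 4 control2 livers, as did 227 of all genes (3.41%). Of the fallers, 20 fell more than 2-fold and 33 had all C18:3 livers below all control2 livers, as did 134 of all genes (2.01%). The median change was 0.81 over the risers and -0.74 over the fallers, against -0.02 over all genes.

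The counts depended on single livers. Without C18:3 mouse 2 there were 78 higher and 27 lower genes, and without C18:3 mouse 3 there were 54 and 12. Leaving out C18:3 mouse 1 or 5 left 125 or 95 higher genes and 30 or 20 lower ones, and leaving out C18:3 mouse 4 gave 167 and 97. Leaving out control2 mouse 1 gave 96 and 35, mouse 2 gave 122 and 64, mouse 3 gave 124 and 57, and mouse 4 gave 90 and 34. A fit of the 9 arrays alone, in which the spread rests on these 2 groups only, called 11 higher genes and 1 lower gene. Of 51 called genes that are named below, 8 kept their call in that fit: Acot4, Acot1, Hacl1, Pex11a, Crat, G0s2, Elmod3 and Ier2. With all 8 groups sharing the spread, 19 of the 51 kept it whichever of the 9 arrays was left out, namely Acot1, Acot3, Acot4, Cyp4a14, Cyp4a31, Hacl1, Pex11a, G0s2, Fitm2, Gpat3, Pctp, Fmo2, E2f8, Tor3a, Chrna2, Abcg5, Ier2, Creb3l2 and Tmem51.

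The livers of both groups had median intensities of 156.2 to 164.8 (C18:3) and 156.9 to 161.6 (control2), and the lowest correlation between arrays was 0.9718 among C18:3 livers and 0.9506 among control2 livers. Control2 mouse 1 stood farthest from its group, with a root mean square deviation of 0.447 log2 units, against 0.216 to 0.327 for the C18:3 livers and 0.249 to 0.305 for the other control2 livers. In this control liver the neutrophil markers S100a8 and S100a9 summed to an intensity of 154, against 10.7 to 14.3 in the C18:3 livers and 9.3 to 11.8 in the other controls. The acute phase gene Lcn2 was at 12.38 there, against 6.25 to 8.37 in the C18:3 livers and 3.76, 4.23 and 8.59 in the other control2 livers. None of 8 hepatocyte markers, Alb and Hnf4a among them, passed the test, and all 8 were above a log2 signal of 5. Over all cell type markers, 0 of 47 passed limma's test and 3 had an unadjusted p under 0.05. The 14 macrophage markers summed to 2069 to 4652 in C18:3 livers and 1925 to 3053 in control2 livers, with C18:3 mouse 2 the highest. Their part in the results below was not tested. These were whole livers, in which fewer cells of a type and less RNA per cell cannot be told apart. Of 3 Ppara probesets 1 separated the genotypes, with every WT array of the series at 8.10 or more and every PPARα -/- array at 7.93 or less.

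Acot3 had the largest fitted rise of all genes and lies in a cluster of acyl-CoA thioesterase genes. These enzymes release free fatty acids from acyl-CoA in the cytosol, mitochondria and peroxisomes. Acot2, Acot1, Acot4 and Acot3 lie side by side on the plus strand of chromosome 12 (RefSeq, GRCm38.p6), and all 4 rose with C18:3. Their promoters are shown because the 4 neighbours moved together. Each line holds the 250 bases before the first start site in RefSeq's promoter table, at chr12:83987611-83987860 (Acot2), chr12:84009252-84009501 (Acot1), chr12:84038129-84038378 (Acot4) and chr12:84051894-84052143 (Acot3), and capitals mark AGGTCA, the half-site of PPARα and its partner, on either strand. For Acot4 this start site lies inside the gene, whose annotated start is base 84037254, while the other windows end where their gene starts.

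Acot2: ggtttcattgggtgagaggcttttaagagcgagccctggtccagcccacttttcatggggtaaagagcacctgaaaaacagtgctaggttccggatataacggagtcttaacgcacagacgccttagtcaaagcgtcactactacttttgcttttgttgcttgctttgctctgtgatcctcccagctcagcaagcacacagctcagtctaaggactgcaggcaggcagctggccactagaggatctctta
Acot1: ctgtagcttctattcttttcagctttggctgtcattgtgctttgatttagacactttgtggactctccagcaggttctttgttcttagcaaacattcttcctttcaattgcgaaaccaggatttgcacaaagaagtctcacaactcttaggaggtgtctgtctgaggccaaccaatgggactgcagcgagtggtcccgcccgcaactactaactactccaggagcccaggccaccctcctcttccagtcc
Acot4: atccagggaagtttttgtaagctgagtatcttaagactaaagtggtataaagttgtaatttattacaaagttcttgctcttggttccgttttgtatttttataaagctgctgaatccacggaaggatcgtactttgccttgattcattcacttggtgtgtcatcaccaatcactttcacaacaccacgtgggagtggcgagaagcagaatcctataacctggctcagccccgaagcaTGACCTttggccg
Acot3: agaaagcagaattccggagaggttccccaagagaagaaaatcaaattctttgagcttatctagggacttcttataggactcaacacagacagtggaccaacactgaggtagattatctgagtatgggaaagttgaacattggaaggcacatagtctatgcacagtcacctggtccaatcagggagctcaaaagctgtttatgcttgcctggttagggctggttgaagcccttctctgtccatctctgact

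Only the Acot4 promoter held this half-site in the printed window, 1 copy on the minus strand that starts 13 bases before that start site. Among all genes with a RefSeq promoter 15.8% had it in this window, and among the measured genes with a promoter 13.8% did (758 of 5475). Of the risers 15.6% had it and of the fallers 15.7% (17 of 109 and 8 of 51 with a promoter).

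Acot3, a peroxisomal thioesterase of long-chain acyl-CoA, had log2 signals of 10.06, 10.20, 10.94, 10.17 and 11.02 in C18:3 livers, against 2.2, 7.59, 8.44 and 5.40 in control2 livers. The 5 fed livers lay within 1 log2 unit of each other, while the control livers were spread widely and all lay lower. The change was 4.57 (95% interval 2.97 to 6.17, adjusted p = 0.00123), or 23.8-fold. It was 3.33 to 5.41 with single arrays left out, the lowest without control2 mouse 1. The probeset of Acot3 carries the suffix of a set that can read several related transcripts, so a share of its signal may come from other members of the family.

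Acot4, the peroxisomal succinyl-CoA thioesterase, was at 7.14, 7.71, 8.22, 7.18 and 7.55 in C18:3 livers, against 2.94, 5.10, 5.06 and 4.74 in control2 livers. It rose by 3.10 (2.32 to 3.88), or 8.55-fold, with an adjusted p of 1.89e-05, and its second probeset rose by 2.32. Control2 mouse 1 was again the lowest liver, and without it the change was 2.59. Acot1, the cytosolic member, was at 10.66, 11.56, 11.86, 10.37 and 11.05 in C18:3 livers, against 8.58, 8.85, 9.11 and 9.13 in control2 livers. Its control livers were close together, and the rise of 2.19 (1.44 to 2.93, adjusted p = 0.000922) was 4.55-fold. Acot2, the mitochondrial member, had 7.80, 8.44, 8.50, 7.25 and 8.18 in C18:3 livers, against 6.15, 5.98, 6.85 and 6.24 in control2 livers. The groups did not overlap, the change was 1.73 (0.92 to 2.54, adjusted p = 0.0155), and the call was lost without C18:3 mouse 3, with a change of 1.61.

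**Figure D1:**
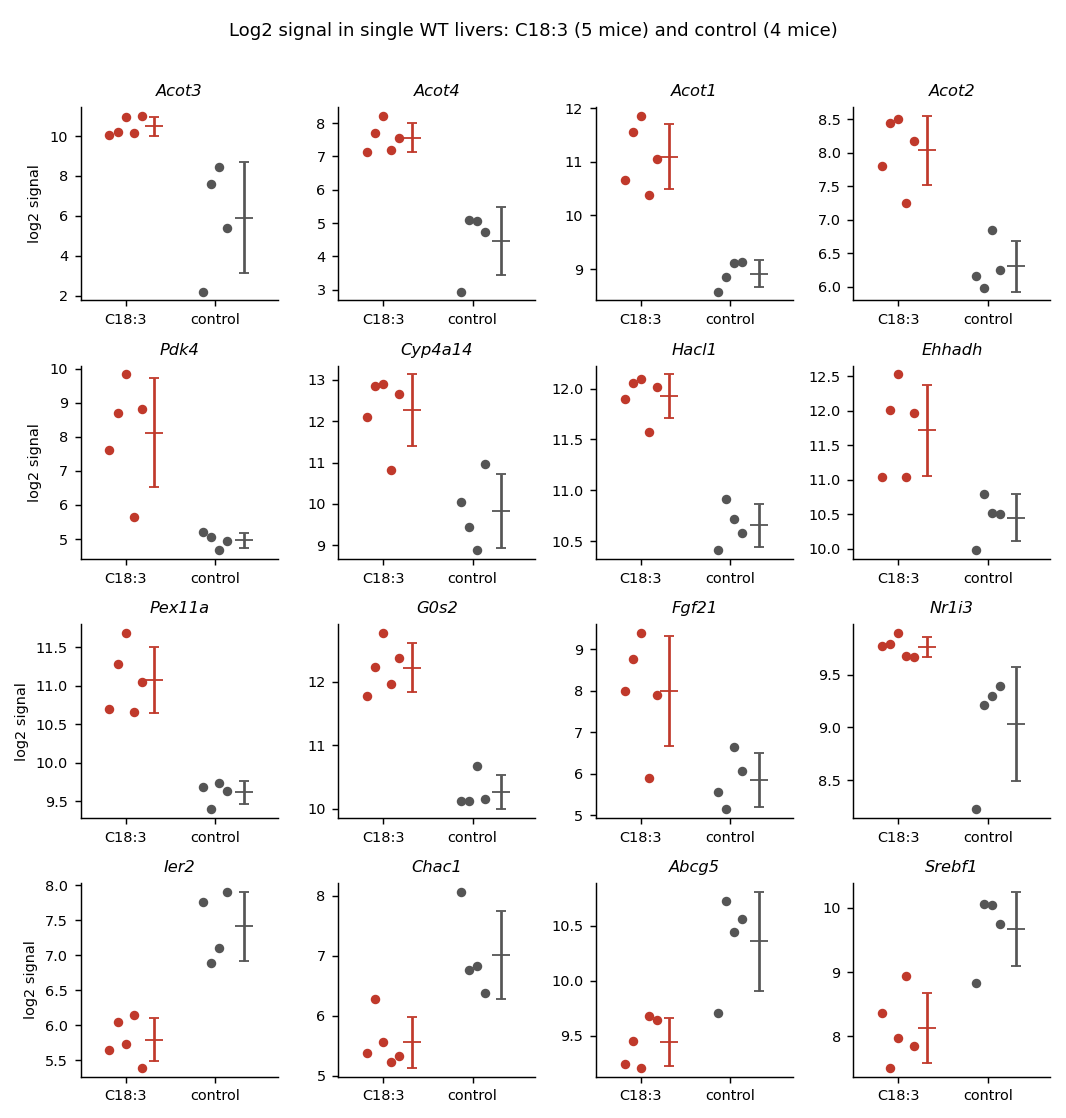
Log2 signal (vertical axis, a separate scale for each gene) of 16 genes in single WT livers, C18:3 (5 red points) left of control2 (4 grey points), each with its mean and SD beside the points. For Acot4, Acot1, Acot2, Pdk4, Hacl1, Ehhadh, Pex11a and G0s2 every C18:3 point lies above every control point, and for Ier2, Chac1 and Abcg5 every one lies below.

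Of 12 measured thioesterases 5 rose, the fifth being Acot8, a peroxisomal enzyme, with a change of 0.66 (adjusted p = 0.0346). Its call was lost without C18:3 mouse 2, 3 or 5 or control2 mouse 2, 3 or 4, with changes of 0.54 to 0.76 over all arrays left out. The list's median was 0.29 and none of it fell. Without C18:3 mouse 3 its count was 3.

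Among 27 measured genes long known as PPARα targets 15 rose (55.6%), against 2.01% of all genes, and none fell. All 27 had changes above 0, from 0.06 to 4.57, with a median of 0.56. Without C18:3 mouse 3 the count was 7, and in the fit of the 9 arrays alone it was 3. Besides the 4 thioesterases, Pdk4, Cyp4a31, Cyp4a14, Cidec, Fgf21, Pex11a, Vnn1, Ehhadh, Slc22a5, Slc25a20 and Cpt2 passed. Cd36, the fatty acid transporter of the plasma membrane, had a change of 0.12 (-0.54 to 0.78, adjusted p = 0.938), and Fabp1, the fatty acid binding protein of liver, one of 0.20 (adjusted p = 0.496). Plin2 (0.54) and Angptl4 (0.46) did not pass either. In PPARα -/- livers 8 of the 27 rose with C18:3 and none fell, with a median change of 0.36. Of the 27, 1 passed limma's test of the difference between the genotypes.

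Pdk4 encodes a kinase that shuts off the pyruvate dehydrogenase complex and so spares glucose when fat is burned. It was at 7.61, 8.69, 9.84, 5.64 and 8.83 in C18:3 livers, against 5.19, 5.05, 4.66 and 4.95 in control2 livers. The control livers differed little, while the C18:3 livers spanned more than 4 log2 units, with mouse 4 just above the controls. The change was 3.16 (1.69 to 4.62, adjusted p = 0.0144), or 8.91-fold, and the call was lost without C18:3 mouse 3, with a change of 2.73. It was the only one of 8 measured genes of this fuel switch that passed.

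The Cyp4a enzymes add a hydroxyl group to the far end of fatty acids, the first step of ω-oxidation. Cyp4a31 had 6.70, 8.08, 8.83, 6.59 and 8.40 in C18:3 livers, against 4.40, 5.01, 4.95 and 6.10 in control2 livers, a change of 2.61 (1.66 to 3.56, adjusted p = 0.00176) with no overlap. Cyp4a14 had 12.10, 12.86, 12.91, 10.82 and 12.65 in C18:3 livers, against 10.04, 9.45, 8.87 and 10.97 in control2 livers. Here C18:3 mouse 4 lay below the highest control, and the change was 2.43 (1.40 to 3.47, adjusted p = 0.00631), or 5.41-fold. These 2 of the 8 measured genes of ω-oxidation rose, and the list's median was 0.22. The Cyp4a genes are near copies of each other and their probesets may share signal. Aldh3a2, the aldehyde dehydrogenase of the same pathway, had a change of 0.89 (0.27 to 1.52, adjusted p = 0.121).

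In the carnitine shuttle 4 of 6 measured genes rose, against 2.01% of all genes, with a median of 0.53 over the list. Crat, carnitine acetyltransferase, had 8.36, 8.87, 9.16, 8.26 and 8.67 in C18:3 livers, against 7.28, 7.39, 7.36 and 7.07 in control2 livers. Its change was 1.39 (0.70 to 2.08, adjusted p = 0.0204), or 2.62-fold, with all C18:3 livers clear of the controls. Slc22a5, the carnitine transporter of the plasma membrane, rose by 1.13 (adjusted p = 0.0219), with 8.59 in C18:3 mouse 4 below the highest control of 8.75. Of the 2 probesets of Slc22a5 only 1 passed, and the other had a fitted change of 1.79. Slc25a20, the carnitine/acylcarnitine carrier of the inner mitochondrial membrane, rose by 0.56 (adjusted p = 0.0305) and Cpt2, its partner enzyme, by 0.50 (adjusted p = 0.0143), both without overlap. Cpt1a, the rate-limiting entry enzyme, had a change of 0.27 (-0.02 to 0.57, adjusted p = 0.395). All 4 calls were lost without C18:3 mouse 3 or control2 mouse 4, those of Crat and Slc22a5 also without C18:3 mouse 2, that of Slc22a5 without control2 mouse 2, and that of Slc25a20 without C18:3 mouse 1, 2 or 5 or control2 mouse 1 or 2. The list's count was 1 without C18:3 mouse 2, 0 without C18:3 mouse 3, 2 without control2 mouse 2 and 0 without control2 mouse 4. The changes with single arrays left out were 1.26 to 1.49 for Crat, 0.95 to 1.35 for Slc22a5, 0.52 to 0.61 for Slc25a20 and 0.45 to 0.56 for Cpt2.

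Of 26 measured genes of mitochondrial β-oxidation only Eci1 and Decr1 passed, although 23 of the 26 changes were above 0 and the median was 0.16. Both enzymes serve unsaturated fatty acids, Eci1 by shifting a double bond and Decr1 by reducing a pair of them. Eci1 had 10.63, 10.97, 11.26, 10.49 and 10.62 in C18:3 livers, against 10.23, 10.28, 10.19 and 10.28 in control2 livers, a change of 0.55 (0.29 to 0.81, adjusted p = 0.0159). The control livers lay within 0.1 log2 units and every C18:3 liver was above them, but without C18:3 mouse 3 (0.43) the call was lost. Decr1 rose by 0.38 (0.16 to 0.60, adjusted p = 0.0497) and kept its call only when C18:3 mouse 1 or 4 was the array left out, with changes of 0.29 to 0.43 over all arrays. Of the 2 probesets of Decr1 only 1 passed, and the other had a fitted change of 0.75. The subunits of the trifunctional protein had changes of 0.34 (Hadha, adjusted p = 0.0923) and 0.42 (Hadhb, 0.0709), and the medium-chain dehydrogenase Acadm one of 0.28 (0.142).

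In peroxisomes 5 of 20 measured genes of fatty acid oxidation rose: Crat, Hacl1, Ehhadh, Acot8 and Acaa1a. Hacl1, which removes 1 carbon from 2-hydroxy fatty acids in α-oxidation, had 11.90, 12.05, 12.10, 11.57 and 12.02 in C18:3 livers, against 10.41, 10.91, 10.72 and 10.58 in control2 livers. It rose by 1.27 (0.92 to 1.62), or 2.41-fold, with an adjusted p of 5.97e-05, and its replicates were tight in both groups. Ehhadh, which carries out the hydratase and dehydrogenase steps of β-oxidation in peroxisomes, had 11.04, 12.00, 12.53, 11.03 and 11.97 in C18:3 livers, against 9.98, 10.79, 10.51 and 10.51 in control2 livers. The change was 1.26 (0.68 to 1.85, adjusted p = 0.0145), the groups did not overlap, and the call was lost without C18:3 mouse 3 (1.06 to 1.43 over all arrays left out) or control2 mouse 1. Nudt7, a peroxisomal enzyme that breaks down CoA, had a change of -0.61 (-1.0 to -0.22, adjusted p = 0.0874). The count of 5 was 2 without C18:3 mouse 2, 1 without C18:3 mouse 3, and 3 without C18:3 mouse 5 or any single control2 mouse.

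Of 17 measured genes that build peroxisomes 2 rose, against 2.01% of all genes. Pex11a, which drives peroxisomes to divide, had 10.70, 11.28, 11.68, 10.65 and 11.04 in C18:3 livers, against 9.68, 9.40, 9.74 and 9.64 in control2 livers. The lowest C18:3 liver was nearly 1 log2 unit above the highest control, and the change was 1.46 (1.02 to 1.89, adjusted p = 0.000162), or 2.74-fold. Pex19, the carrier of peroxisomal membrane proteins, rose by 0.46 (0.22 to 0.70, adjusted p = 0.0287), but only 1 of its 3 probesets passed, and the call was lost without C18:3 mouse 2, 3 or 5 or control2 mouse 1 or 4 (0.40 to 0.51).

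**Figure D2:**
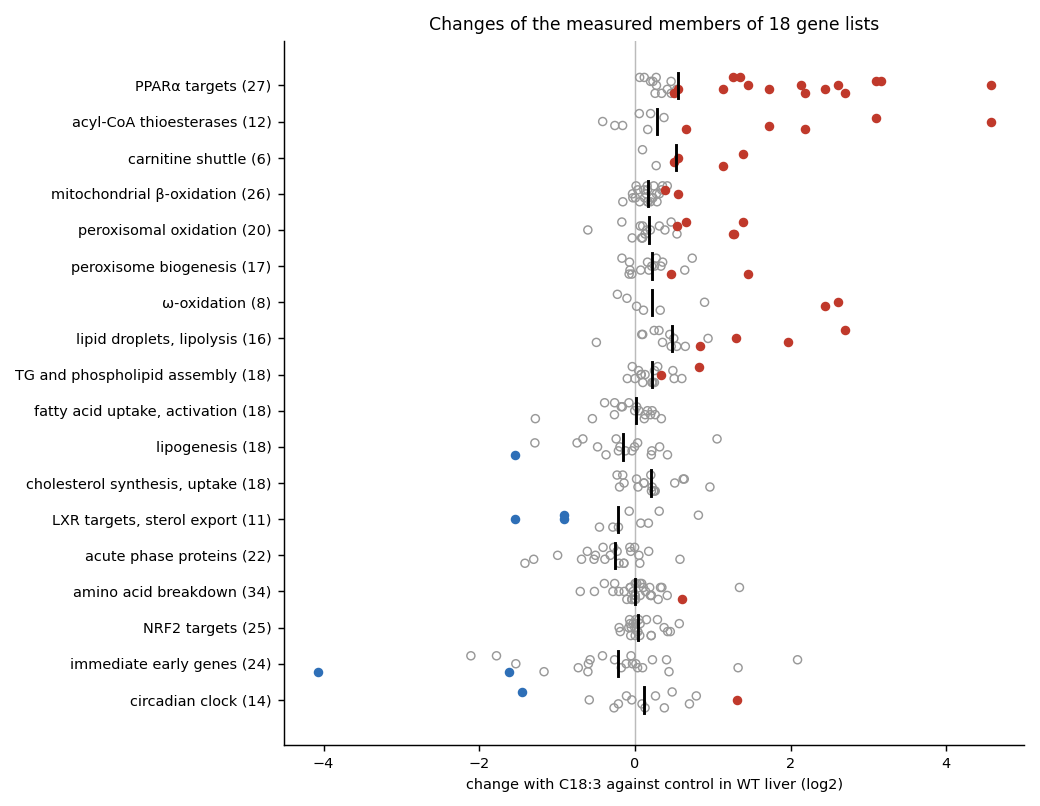
Change with C18:3 against control2 in WT liver (horizontal axis, log2) of every measured member of 18 gene lists, with the number measured in brackets. Filled red points rose and filled blue points fell at an adjusted p under 0.05, open points did not pass, and the black bar is the list's median, 0.56 for the PPARα targets and -0.16 for lipogenesis.

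Genes of the lipid droplet rose in 4 of 16 cases (Cidec, G0s2, Ces1d and Fitm2), against 2.01% of all genes. The list median was 0.48 (0.456 with low genes at their bounds). G0s2, an inhibitor of the lipase ATGL, had 11.77, 12.24, 12.77, 11.96 and 12.37 in C18:3 livers, against 10.11, 10.11, 10.67 and 10.15 in control2 livers. It rose by 1.96 (1.14 to 2.78, adjusted p = 0.00599), or 3.89-fold, and every C18:3 liver was more than 1 log2 unit above the highest control. Cidec, which fuses lipid droplets, was at 4.89, 6.64, 8.83, 3.70 and 7.06 in C18:3 livers, against 4.16, 3.39, 3.11 and 3.45 in control2 livers. All control livers were under a log2 signal of 5, which is taken here as the limit of low signal, so that the rise (adjusted p = 0.0314) was at least 2.33-fold, with C18:3 mouse 4 inside the control range. The spread of Cidec among the fed livers was more than 5 log2 units, and its call was lost without C18:3 mouse 2, 3 or 5 or control2 mouse 2, 3 or 4 (fitted changes 2.04 to 3.33). Ces1d, a triglyceride hydrolase, rose by 1.29 (0.62 to 1.97, adjusted p = 0.0257) to 11.53 to 12.12 in C18:3 livers, against 8.93 in control2 mouse 1 and 10.75 to 11.22 in the other controls. Without control2 mouse 1 its change was 0.76 and the call was lost, as it was without C18:3 mouse 2 or 3. Fitm2, which partitions new triglyceride into droplets, rose by 0.84 (0.52 to 1.16, adjusted p = 0.00242) in all 5 livers and kept its call with every array left out. The list's count was 2 without C18:3 mouse 2 or 3. The lipase Pnpla2 (ATGL) itself had a change of 0.50 (adjusted p = 0.262).

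Of 18 measured genes of triglyceride and phospholipid assembly 2 rose, against 2.01% of all genes. The list median was 0.22 (0.158 with low genes at their bounds). Gpat3, a glycerol-3-phosphate acyltransferase, had 8.19, 8.29, 8.40, 8.00 and 8.26 in C18:3 livers, against 7.89, 7.08, 7.28 and 7.40 in control2 livers, a change of 0.82 (0.45 to 1.19, adjusted p = 0.0124) without overlap. Chpt1, the cholinephosphotransferase, rose by 0.33 (adjusted p = 0.028), with 2 of its 4 probesets past the test, and lost the call without C18:3 mouse 1, 2 or 3 or control2 mouse 1 or 4 (0.28 to 0.39). Lpin2, a phosphatidate phosphatase, had 9.75 to 10.73 in C18:3 livers, against 9.08 to 10.17 in control2 livers, a change of 0.50 (0.03 to 0.98, adjusted p = 0.311).

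Fgf21, the fasting hormone that the liver secretes, was at 8.00, 8.77, 9.39, 5.91 and 7.90 in C18:3 livers, against 5.57, 5.15, 6.64 and 6.08 in control2 livers. In 4 of 5 C18:3 livers it was above every control, and in mouse 4 it lay among them. The change was 2.13 (1.00 to 3.26, adjusted p = 0.029), and the call was lost without C18:3 mouse 2, 3 or 5 or control2 mouse 1, 2 or 4 (1.78 to 2.65). It was the only one of 5 measured genes of ketone body synthesis and its regulation that passed.

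Other large rises were outside these pathways. Fmo2, a flavin monooxygenase, was at 6.64, 7.10, 6.63, 5.24 and 6.83 in C18:3 livers, against 3.19, 4.61, 4.22 and 4.32 in control2 livers, where all 4 were under the limit of low signal. The rise was at least 2.81-fold (adjusted p = 0.00646), and no control reached the lowest C18:3 liver. E2f8, an atypical E2F repressor of cell cycle genes, was at 6.15, 6.16, 6.44, 5.37 and 5.17 in C18:3 livers, against 3.39, 4.48, 4.03 and 3.14 in control2 livers, at least 1.81-fold higher (adjusted p = 0.000557). Slc16a5, a monocarboxylate transporter, was at least 1.39-fold higher (adjusted p = 0.0328), with 4.28 to 7.10 in C18:3 livers and 3.37 to 3.62 in control2 livers, and lost its call in 7 of the 9 fits with an array left out (without C18:3 mouse 2, 3 or 5 or any control2 mouse, fitted changes 1.58 to 2.28). Tor3a, a member of the torsin family, rose as well (adjusted p = 0.00582), but its group mean in C18:3 livers was below the limit and no fold is given. Pctp, which carries phosphatidylcholine between membranes, had 9.96, 10.21, 10.65, 9.96 and 10.07 in C18:3 livers, against 7.64, 9.16, 9.23 and 8.91 in control2 livers, a change of 1.43 (0.93 to 1.94, adjusted p = 0.00146). Without control2 mouse 1, its lowest liver, the change was 1.07 and was still called.

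The nuclear receptor CAR (Nr1i3), which controls drug-metabolizing enzymes, rose by 0.73 (0.35 to 1.12, adjusted p = 0.0288). It was at 9.77, 9.79, 9.89, 9.68 and 9.67 in C18:3 livers, against 8.22, 9.21, 9.29 and 9.39 in control2 livers. The fed livers were nearly equal, and without control2 mouse 1 the change was 0.46 and not called, nor was it without C18:3 mouse 2 or 3. It was the only call in a list of 19 nuclear receptors and cofactors, which does not hold the clock gene Nr1d1, and in a list of 15 genes of the CAR, PXR and AhR pathways, where 2.93% of all genes were called in either direction. An unadjusted p under 0.05 was reached by 7 of the 19 (5 higher, 2 lower) and 6 of the 15 (all higher). Of all genes 15.3% reached it. Ppara itself had a change of 0.40 (0.08 to 0.72, adjusted p = 0.192), Rxra one of -0.32 (-0.52 to -0.13, adjusted p = 0.0578) and Ahr one of -0.15 (-0.54 to 0.23, adjusted p = 0.817). Bhmt, which remethylates homocysteine, rose by 0.61 (adjusted p = 0.023) as 1 of 34 genes of amino acid breakdown, near the share of all genes, and lost the call without C18:3 mouse 1 or 3 or control2 mouse 2 or 3 (0.49 to 0.70). Hspd1, the mitochondrial chaperonin, rose by 0.28 (adjusted p = 0.0352) as 1 of 27 heat shock and unfolded protein genes, also near that share. The median of this list was -0.13 (0 with low genes at their bounds), and 10 of its members were lower and 4 higher at an unadjusted p under 0.05. Hspd1 lost the call without C18:3 mouse 2 or 3 or control2 mouse 1 or 4 (0.22 to 0.32).

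Among the genes that fell, Srebf1 encodes SREBP-1, the factor that drives fatty acid synthesis. It was at 8.36, 7.51, 7.98, 8.94 and 7.84 in C18:3 livers, against 8.83, 10.05, 10.04 and 9.75 in control2 livers. The lowest control overlapped with C18:3 mouse 4, and the change was -1.54 (-2.35 to -0.73, adjusted p = 0.0289). The call was lost without C18:3 mouse 2, 3 or 5 or control2 mouse 2, 3 or 4 (-1.82 to -1.39). None of its lipogenic neighbours passed: of 18 measured genes of lipogenesis Srebf1 was the only one called, and the list's median was -0.16. Fasn, the fatty acid synthase, had a change of -0.48 (-1.26 to 0.29, adjusted p = 0.639), Acaca one of -0.74 (adjusted p = 0.21) and Scd1 one of -0.12 (adjusted p = 0.818).

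Abcg5 and Abcg8, which form the sterol export pump of the bile canaliculus, both fell. Abcg5 had 9.25, 9.45, 9.21, 9.68 and 9.64 in C18:3 livers, against 9.71, 10.72, 10.44 and 10.56 in control2 livers, a change of -0.91 (-1.27 to -0.55, adjusted p = 0.00376). Abcg8 had 8.10, 8.30, 7.82, 8.37 and 8.39 in C18:3 livers, against 8.18, 9.42, 9.44 and 9.39 in control2 livers, also a change of -0.91 (-1.40 to -0.42, adjusted p = 0.0314). In both, control2 mouse 1 was the control nearest to the C18:3 livers. Abcg5 kept its call with every array left out, while Abcg8 lost it without C18:3 mouse 1, 2 or 3 or control2 mouse 2, 3 or 4 (-1.22 to -0.80). The median of the 11 measured LXR targets was -0.21. With Srebf1 they were the 3 fallers among these 11, against 0.916% of all genes. That count was 1 without C18:3 mouse 2 or 3 or control2 mouse 2, 3 or 4, and 1 with the replicate number as a block.

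Immediate early genes, which respond within minutes to stress and growth signals, fell in 2 of 24 measured cases, against 0.916% of all genes. Ier2 had 5.65, 6.04, 5.72, 6.15 and 5.39 in C18:3 livers, against 7.76, 6.88, 7.10 and 7.90 in control2 livers. The change was -1.62 (-2.17 to -1.07, adjusted p = 0.000873), without overlap and called with every array left out. Fos was at 2.72, 3.21, 3.44, 4.30 and 2.78 in C18:3 livers, against 9.86, 3.33, 7.0 and 9.28 in control2 livers. All C18:3 livers were under the limit of low signal, so the change (adjusted p = 0.0211) was -2.36 or lower, but control2 mouse 2 lay in their range. The call for Fos was lost without C18:3 mouse 3 or 5 or control2 mouse 1 or 4 (fitted changes -5.42 to -3.25). Egr1 had a change of -2.11 (-3.70 to -0.52, adjusted p = 0.162) and Btg2 one of -1.78 (adjusted p = 0.111).

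Chac1, an enzyme that degrades glutathione, was at 5.38, 6.29, 5.57, 5.23 and 5.33 in C18:3 livers, against 8.07, 6.76, 6.84 and 6.38 in control2 livers, a change of -1.45 (-2.10 to -0.81, adjusted p = 0.00965). The groups were apart, but without control2 mouse 1, the highest, the change was -1.10 and not called. The same control liver was the highest for Creb3l2, a transcription factor of the secretory pathway, at 7.48, against 4.53 to 5.23 in C18:3 livers and 5.72 to 6.08 in the other controls (change -1.39, -1.93 to -0.85, adjusted p = 0.00313, still called without it at -0.99). It was also the highest for Dnajc12 at 8.87, against 5.12 to 5.66 in C18:3 livers and 5.73 to 6.38 in the other controls. For Dnajc12, a co-chaperone, the change of -1.31 (adjusted p = 0.0491) was -0.58 and uncalled without it, and the call was lost as well without C18:3 mouse 1, 2, 3 or 5 or control2 mouse 4. Cyp26a1, which breaks down retinoic acid, and Arfgap3, a regulator of Golgi transport, were under the limit in all C18:3 livers (2.40 to 3.17 and 2.63 to 2.97). In control2 livers Cyp26a1 was at 7.14, 4.02, 3.47 and 4.20 (adjusted p = 0.023) and Arfgap3 at 6.42, 3.53, 3.46 and 4.38 (adjusted p = 0.0159). Only control2 mouse 1 was above the limit for either, and both calls were lost without it, that of Cyp26a1 also without C18:3 mouse 3 or 5.

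Tmem51, a membrane protein, had 5.94, 5.57, 5.76, 6.83 and 5.98 in C18:3 livers, against 7.08, 7.34, 7.34 and 7.25 in control2 livers. Its controls were tight and the change of -1.24 (-1.75 to -0.73, adjusted p = 0.0054) was called with every array left out. Lnx1, a ubiquitin ligase, fell by 1.29 on the log2 scale (adjusted p = 0.0142), to 4.73 to 6.34 in C18:3 livers, against 6.48 to 7.29 in control2 livers, and lost the call without C18:3 mouse 3 or control2 mouse 1 (-1.49 to -1.09 over all arrays left out). Spry4, a feedback inhibitor of receptor tyrosine kinases, was under the limit in all C18:3 livers (3.14 to 3.89) and at 3.91 to 5.57 in control2 livers (adjusted p = 0.0289), a call lost without C18:3 mouse 3 or 5 or control2 mouse 2, 3 or 4 (fitted changes -1.47 to -0.92).

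Of 14 measured clock genes 1 rose and 1 fell, where 2.01% and 0.916% of all genes did. Cry1, a repressor of the clock, had 7.38, 7.63, 7.07, 5.92 and 6.61 in C18:3 livers, against 5.90, 5.60, 5.79 and 5.15 in control2 livers. Mouse 4 lay just above the controls, and the change was 1.32 (0.61 to 2.02, adjusted p = 0.0312). The call was lost without C18:3 mouse 1, 2 or 3 or control2 mouse 2 or 4 (1.14 to 1.57). Nr1d1 (REV-ERBα), another repressor, was low throughout, at 2.28 to 3.92 in C18:3 livers and 4.06 to 4.56 in control2 livers (adjusted p = 0.0206, lost without C18:3 mouse 1 or 3 or control2 mouse 4), so that no fold is given. Per2 (0.70, adjusted p = 0.161) and Dbp (-0.59, adjusted p = 0.66) did not pass.

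Several lists had no member past limma's test, where 2.93% of all genes passed and 15.3% had an unadjusted p under 0.05. They held 18 genes of fatty acid uptake, binding and activation (2 with an unadjusted p under 0.05), 13 desaturases and elongases (0), 18 genes of cholesterol synthesis and uptake (1) and 19 apolipoproteins (3). Further lists without a call held 22 acute phase proteins (6, all lower), 20 complement genes (5), 20 coagulation genes (8, all lower), 17 genes of gluconeogenesis and glycogen (5), 9 of glycolysis (2), 15 of insulin signalling (1), 21 of bile acid synthesis and transport (4), 25 NRF2 targets (1) and 19 interferon-induced genes (0). Fads1 and Fads2, the desaturases that turn linolenic acid into longer polyunsaturated fatty acids, had changes of 0.02 and 0.28 (adjusted p = 0.983 and 0.729). Of the acute phase genes, Saa2 had 8.05 to 9.89 in C18:3 livers, against 14.55 in control2 mouse 1 and 6.97 to 10.47 in the other controls. Txnip, which binds thioredoxin and curbs glucose uptake, had 9.37 to 10.27 in C18:3 livers, against 8.68 to 9.15 in control2 livers, with a change of 0.83 (0.29 to 1.37, adjusted p = 0.0931) that was called in 1 of the 9 fits with an array left out. Fabp4 had a change of -0.18 (-1.10 to 0.75, adjusted p = 0.935). No values are given for Prlr and Cpt1b, because no probeset with a single gene symbol carries their names here.

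The C18:3 livers kept much the same order from gene to gene. Of the 15 PPARα targets that rose, mouse 3 was the highest of the 5 livers in 14 and mouse 4 the lowest in 12. Over all 134 risers mouse 3 was the highest in 80 and mouse 4 the lowest in 75, and over the 61 fallers mouse 4 was the highest in 43. Among the controls, mouse 1 was the lowest in 67 of the 134 risers and the highest in 40 of the 61 fallers. These counts describe the genes that were called on the same arrays. The amount of triglyceride each mouse took up was not analysed here.

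The same dose in PPARα -/- mice raised 318 genes and lowered 320 (4.77% and 4.8% of 6661). How far these counts depend on single livers was not tested. PPARα -/- control2 mouse 4 had a root mean square deviation of 0.438, against 0.281 to 0.344 for the other PPARα -/- control2 livers. Of the 134 WT risers 28 rose in PPARα -/- liver too (20.9% of the WT list and 8.81% of the other). Of the 61 WT fallers 12 fell (19.7% and 3.75%), while the median changes in PPARα -/- liver were 0.20 over the risers and -0.21 over the fallers. Whether the change differed between the genotypes was tested directly. The WT change was higher for 17 genes (0.255%) and lower for 7 (0.105%), 24 in all (0.36%), and 13 of these 24 were among the 195 genes called in WT liver. That count of 24 was 3 without WT C18:3 mouse 3, 15 or 13 without WT C18:3 mouse 1 or 5, 13, 51 or 13 without WT control2 mouse 1, 3 or 4, 13 or 14 without PPARα -/- C18:3 mouse 2 or 5, and 8, 15 or 44 without PPARα -/- control2 mouse 1, 2 or 4. The genotypes are of different substrains, and substrain and loss of PPARα cannot be told apart.

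In PPARα -/- mice G0s2 was at 8.65, 8.64, 8.55, 8.95 and 7.42 in C18:3 livers, against 11.31, 9.46, 8.23 and 9.0 in control2 livers. Where WT livers rose by 1.96, PPARα -/- livers had a change of -1.06 (adjusted p = 0.0892), and the difference was 3.02 (1.86 to 4.18, adjusted p = 0.0169, not called without WT C18:3 mouse 3). Pctp had a change of 1.43 in WT and -0.38 in PPARα -/- livers (difference 1.82, adjusted p = 0.0169, not called without WT C18:3 mouse 3). Elmod3, an ELMO domain protein, rose by 1.13 in WT and fell by 0.90 on the log2 scale in PPARα -/- livers, and the difference of 2.03 (adjusted p = 0.0169) held with every array left out, while its rise in WT livers was not called without C18:3 mouse 3 or control2 mouse 4 (1.05 to 1.19). The probeset of Elmod3 carries the suffix of a set whose probes may also read other transcripts. Acot4 had a change of 0.77 (adjusted p = 0.204) in PPARα -/- livers (difference 2.33, 1.23 to 3.43, adjusted p = 0.0474). Chrna2, a nicotinic receptor subunit, was at least 1.30-fold higher with C18:3 in WT livers but under the limit of low signal in all PPARα -/- livers, at 1.07 to 2.14 with C18:3 and 1.32 to 1.89 in control2 livers. Its fitted difference passed (adjusted p = 0.0406), but its size rests on signals below the limit.

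Chac1 went in opposite directions. In PPARα -/- mice it was at 6.73, 6.30, 6.87, 6.10 and 6.72 in C18:3 livers, against 5.00, 5.65, 4.95 and 5.48 in control2 livers, a rise of 1.27 (0.63 to 1.92, adjusted p = 0.0126), and the difference of -2.72 (-3.63 to -1.81, adjusted p = 0.01) held with every array left out. Ier2 had a change of 0.18 there (adjusted p = 0.706), with 6.08 to 6.73 in C18:3 livers and 6.21 to 6.41 in control2 livers (difference -1.80, adjusted p = 0.03). Ptprk, a receptor phosphatase, fell by 0.50 on the log2 scale in WT livers (adjusted p = 0.0172) and had a change of 0.24 in PPARα -/- livers (difference -0.75, adjusted p = 0.0409). The fall in WT livers was not called without C18:3 mouse 3 or 5. Taf2, a subunit of the general factor TFIID, had a change of 0.23 in WT livers (adjusted p = 0.841) and rose by 2.47 in PPARα -/- livers (difference -2.23, adjusted p = 0.0169, lost without WT C18:3 mouse 3 or PPARα -/- control2 mouse 1). Megf9 had a change of -0.12 in WT livers and rose by 1.58 in PPARα -/- livers (difference -1.70, adjusted p = 0.0406). Among the control2 livers alone, PPARα -/- minus WT was -1.74 for Chac1 (limma, adjusted p = 0.000572) and -1.09 for Ier2 (adjusted p = 0.0142). It was -0.22 for Taf2, 0.07 for Ptprk and 0.01 for Megf9, without a call. Acot4, Chrna2, Ier2, Ptprk and Megf9 lost the call of the difference without WT C18:3 mouse 3, WT control2 mouse 1 or 4, PPARα -/- C18:3 mouse 2 or PPARα -/- control2 mouse 1 or 2. The call was also lost without WT C18:3 mouse 1, 2 or 5 or PPARα -/- C18:3 mouse 1, 3 or 4 for Acot4, without WT C18:3 mouse 1 or 2 or PPARα -/- C18:3 mouse 5 for Chrna2, and without WT C18:3 mouse 5 for Ier2. It was lost without WT C18:3 mouse 1 or 5, PPARα -/- C18:3 mouse 3, 4 or 5 or PPARα -/- control2 mouse 3 for Ptprk, and without WT C18:3 mouse 4 or 5 or PPARα -/- C18:3 mouse 1 or 5 for Megf9. The differences over all 18 arrays left out were 1.82 to 2.55 (Acot4), a fitted 1.82 to 2.33 (Chrna2), -1.98 to -1.64 (Ier2), -0.84 to -0.67 (Ptprk) and -1.88 to -1.51 (Megf9).

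**Figure D3:**
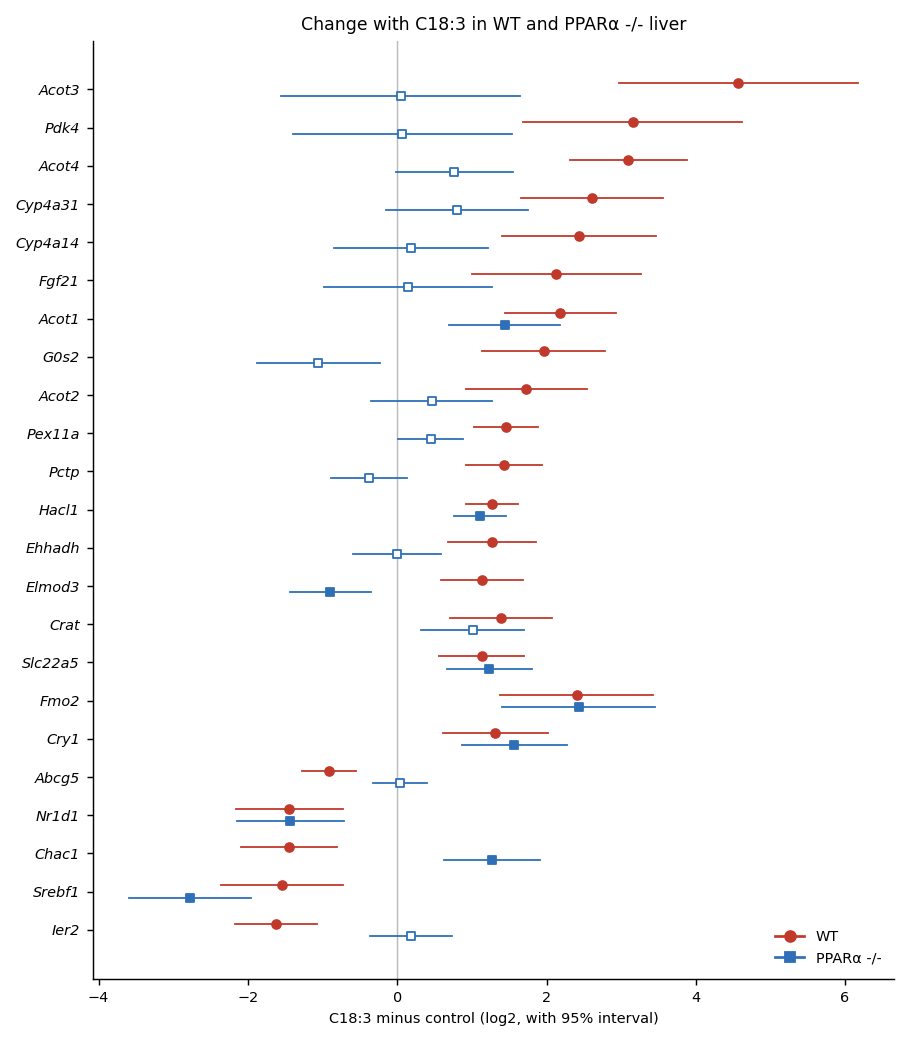
Change with C18:3 against control2 (horizontal axis, log2, with 95% intervals) of 23 genes in WT liver (red circles) and PPARα -/- liver (blue squares), filled where the adjusted p was under 0.05. Genes low in a group, such as Nr1d1 in both genotypes and Cyp4a14, Cyp4a31 and Fgf21 in PPARα -/- liver, are drawn at their fitted change. Acot3 and Pdk4 lie near 0 in PPARα -/- liver (0.05 and 0.07), while Hacl1, Slc22a5, Fmo2 and Cry1 lie to the right in both.

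For several of the strongest WT risers the direct test between genotypes did not pass although their change in PPARα -/- livers was near 0. Acot3 had a change of 0.05 (-1.56 to 1.65) in PPARα -/- livers, with a difference of 4.52 (2.26 to 6.79, adjusted p = 0.0538). Pdk4 had 0.07 there (difference 3.09, 1.02 to 5.16, adjusted p = 0.15) and Ehhadh -0.01 (difference 1.27, adjusted p = 0.14). Pdk4 was at 6.02 to 9.02 in PPARα -/- C18:3 livers and 6.09 to 7.90 in PPARα -/- control2 livers. In WT control2 livers it was at 4.66 to 5.19, and the PPARα -/- controls lay 2.02 higher by limma (adjusted p = 0.111). Cyp4a14 and Fgf21 were under the limit of low signal in every PPARα -/- liver of this comparison, so that neither a change there nor a difference between genotypes is given. Cyp4a14 was at 2.02 to 2.82 in PPARα -/- C18:3 livers and 1.74 to 2.44 in PPARα -/- control2 livers, and Fgf21 at 2.08 to 2.85 in PPARα -/- C18:3 livers and 2.25 to 2.75 in PPARα -/- control2 livers.

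Other genes changed in both genotypes. Hacl1 was at 9.93, 10.66, 10.68, 10.70 and 10.88 in PPARα -/- C18:3 livers, against 9.88, 9.46, 9.53 and 8.96 in PPARα -/- control2 livers, a rise of 1.11 (0.76 to 1.46, adjusted p = 0.000352). Acot1 rose by 1.44 (adjusted p = 0.0144), Slc22a5 by 1.24 (adjusted p = 0.00689), Slc25a20 by 0.56 (adjusted p = 0.0155) and Cpt2 by 0.36 (adjusted p = 0.0452) in PPARα -/- livers. Of the 6 carnitine shuttle genes 4 rose in each genotype, and Cpt1a, which did not pass in WT livers, rose by 0.56 in PPARα -/- livers (adjusted p = 0.0156). Fmo2 rose by 2.43 (adjusted p = 0.00366), Cry1 by 1.57 (adjusted p = 0.00607) and Lpin2 by 0.86 (adjusted p = 0.0197) in PPARα -/- livers. Srebf1 was at 5.92, 4.97, 5.65, 6.51 and 5.11 in PPARα -/- C18:3 livers, against 8.57, 8.74, 8.87 and 7.46 in PPARα -/- control2 livers, a change of -2.78 (-3.59 to -1.97, adjusted p = 0.000259). Its difference between genotypes was 1.24 (0.09 to 2.39, adjusted p = 0.321). In lipogenesis, with 1 faller among 18 genes in WT livers, 7 fell and 1 rose in PPARα -/- livers (medians -0.16 and -0.77), but none of the 18 passed the test of the difference. Fasn had a change of -1.54 (adjusted p = 0.0121) and Acaca one of -1.52 (adjusted p = 0.00252) in PPARα -/- livers.

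C18:3 was then set against the other triglycerides of the same run, at the same volume and time. C18:2 has a double bond fewer in each chain, and C10:0 has shorter chains with no double bond. Compared directly with C18:2, limma called 0 of 6661 genes (0%), with 163 at an unadjusted p under 0.05 (2.45%) and 1 called with array weights. Compared with C10:0 it called 2 genes, both lower with C18:3 (0.03%), with 348 at an unadjusted p under 0.05 (5.22%). With p values adjusted over both of these pairs together, 0 and 1 probesets were called. The median half-width of the 95% interval over all probesets was 0.319 log2 units against C18:2 and 0.3 against C10:0, so that differences of this size in a typical gene were within the error.

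The 2 genes called against C10:0 were Sult1e1 and Spry4. Sult1e1, the estrogen sulfotransferase, had 5.25, 5.59, 5.19, 3.99 and 6.25 in C18:3 livers and 6.81, 8.34, 6.62, 9.55 and 8.01 in C10:0 livers. Every C10:0 liver was above every C18:3 liver, and the difference was -2.61 (-3.59 to -1.63, adjusted p = 0.0353), a call lost in 7 of 10 fits with an array left out (without C18:3 mouse 1, 2, 3 or 4 or C10:0 mouse 2, 4 or 5, -2.92 to -2.19). In control2 livers Sult1e1 was under the limit throughout (4.64, 3.68, 4.01 and 2.86), and its change with C18:3 did not pass there (adjusted p = 0.137). Spry4 was at 3.14 to 3.89 in C18:3 livers, all under the limit, and at 6.11, 4.66, 5.25, 5.83 and 5.49 in C10:0 livers (fitted difference -1.88, -2.47 to -1.29, adjusted p = 0.00292), and was called with every array left out.

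For the thioesterases the direct differences from C18:2 were 1.21 for Acot3 (-0.39 to 2.81), 0.75 for Acot4 (-0.03 to 1.53), 0.49 for Acot1 (-0.26 to 1.24) and 0.73 for Acot2 (-0.08 to 1.54), none with a call. From C10:0 they were 0.87 (-0.64 to 2.38), 0.94 (0.21 to 1.68), 0.50 (-0.20 to 1.21) and 0.19 (-0.58 to 0.95) in the same order, with no call. Pdk4 differed from C18:2 by 1.52 (0.05 to 2.98) and from C10:0 by -0.20 (-1.59 to 1.18), and Srebf1 by 0.15 (-0.66 to 0.96) and -1.03 (-1.80 to -0.27). The intervals reach beyond 2-fold upward for Acot3, Acot4 and Acot1 against both triglycerides and for Acot2 and Pdk4 against C18:2, and beyond 2-fold in either direction for Pdk4 against C10:0, so that the triglycerides are not shown to act alike.

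**Figure D4:**
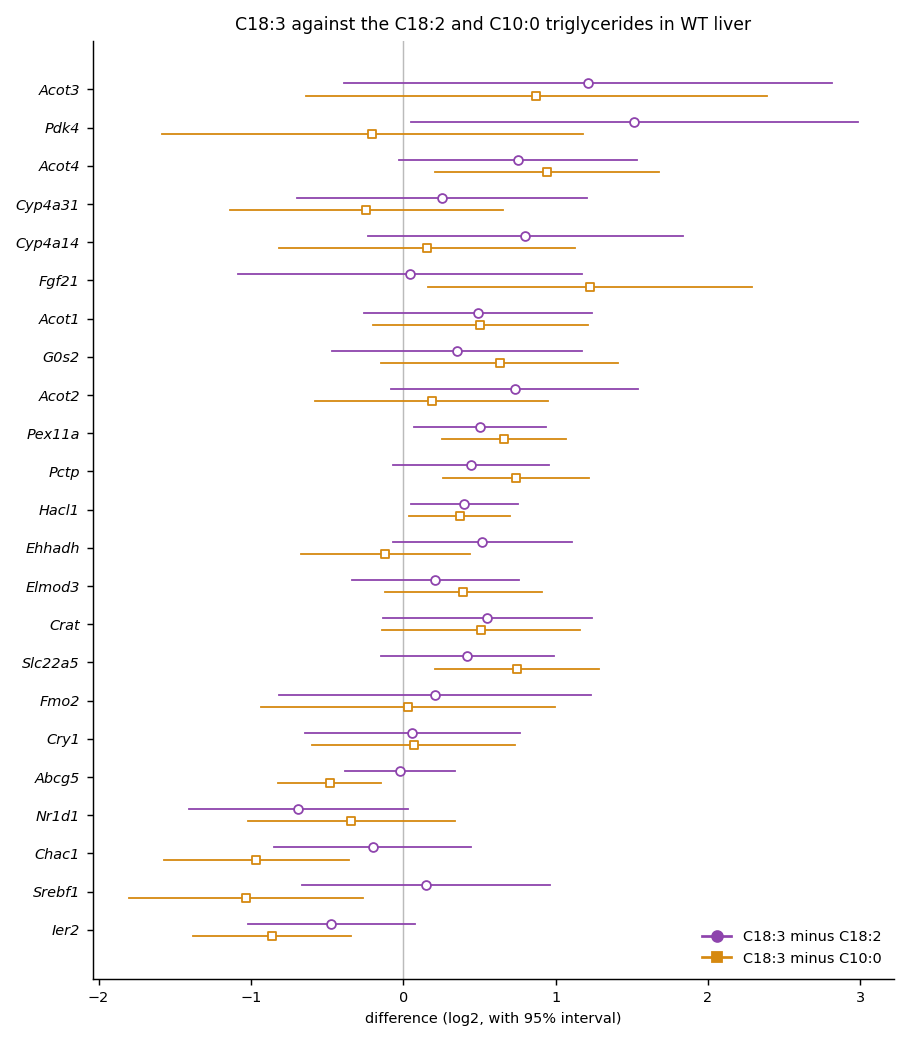
Difference of C18:3 from C18:2 (purple circles) and from C10:0 (orange squares) in WT liver for 23 genes (horizontal axis, log2, with 95% intervals). All points are open because none of these genes had an adjusted p under 0.05, and Pdk4 lies at 1.52 from C18:2 but at -0.20 from C10:0.

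Set against the shared control2 livers, C18:2 raised 18 genes and lowered 4 (0.27% and 0.0601%), and C10:0 raised 67 and lowered 26 (1.01% and 0.39%). Because the control2 livers are the same in all 3 comparisons, their values are only given side by side. The change of Acot3 was 4.57 with C18:3, 3.36 with C18:2 and 3.70 with C10:0, and that of Acot4 was 3.10, 2.34 and 2.15. For Pdk4 the changes were 3.16, 1.64 and 3.36, for Fgf21 2.13, 2.09 and 0.91, and for Srebf1 -1.54, -1.69 and -0.51. Over the 27 PPARα targets the medians were 0.56 with C18:3 (15 called), 0.48 with C18:2 (3 called) and 0.50 with C10:0 (8 called). Compared directly, C18:3 lay above C18:2 in 26 of the 27, with a median difference of 0.25. It lay above C10:0 in 22 of the 27, with a median difference of 0.20. None of these direct differences was called.

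WY14643, measured in the first run against controls of its own, raised 760 genes and lowered 1087 in WT liver (11.4% and 16.3%). Of the 134 genes that rose with C18:3, 103 also rose with WY14643 (76.9% of the C18:3 list, 13.6% of the WY14643 list), and none fell. Of the 61 that fell, 45 also fell (73.8% and 4.14%) and 1 rose. The change was larger with WY14643 for 94 of the risers and 40 of the fallers. Without C18:3 mouse 3 or 2 the shared risers were 44 or 63, and shared fallers were 8 to 72 with single arrays left out: 22, 19, 8, 72 and 16 without C18:3 mouse 1, 2, 3, 4 and 5, and 15 and 29 without control2 mouse 1 and 4. DHA (C22:6) in the first run raised 209 genes and lowered 158 (3.14% and 2.37%). It raised 79 of the 134 (59% and 37.8%) and lowered 24 of the 61 (39.3% and 15.2%).

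The genes that both raised differed in proportion. Pdk4 had a change of 3.16 with C18:3 and 8.36 with WY14643, Acot3 4.57 and 6.91, and Acot1 2.19 and 4.02. Hacl1 was close in both, at 1.27 and 1.20, as were Fgf21 (2.13 and 2.64), Ces1d (1.29 and 1.44) and Elmod3 (1.13 and 1.20). Cd36 had 0.12 with C18:3 and rose by 1.93 with WY14643 (adjusted p = 2.7e-06), and Fabp4 had -0.18 and rose by 1.86 (adjusted p = 0.0016). The 2 treatments were measured in different runs, and no test was made between them.

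**Figure D5:**
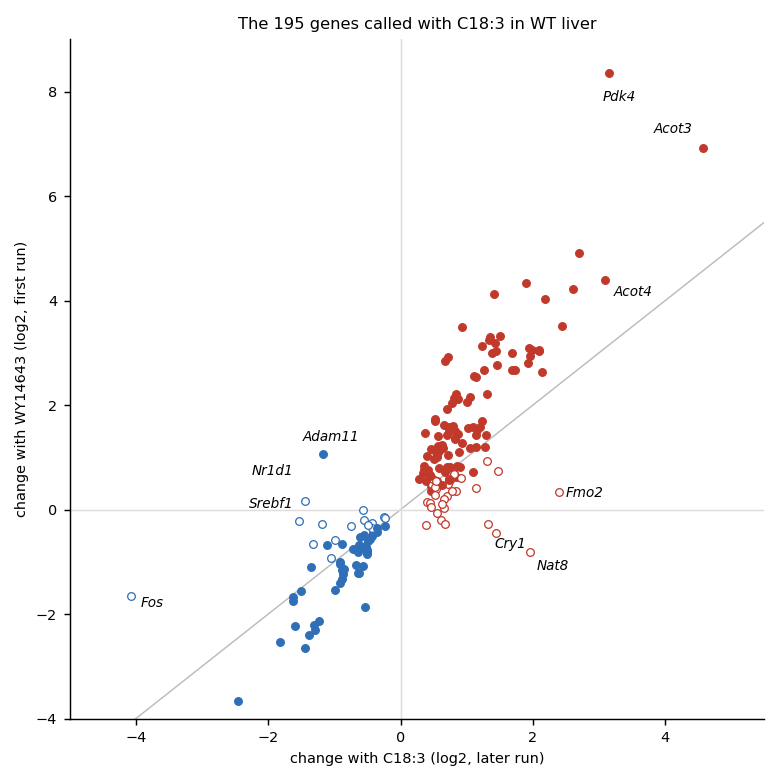
The 195 genes called with C18:3 in WT liver, by their change with C18:3 (horizontal axis, log2, later run) and with WY14643 (vertical axis, log2, first run), with risers in red and fallers in blue, filled where WY14643 also passed and open where it did not. Genes low in a group, such as Fos, are drawn at their fitted change, and the grey diagonal marks equal changes. Pdk4 (3.16 and 8.36) lies far above it, and Fmo2, Nat8 and Cry1 lie near or below the horizontal line of no change with WY14643.

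For 31 risers and 15 fallers WY14643 gave no call, which does not show that they differ between the treatments. Of these 31, 11 also rose with C18:3 in PPARα -/- livers, and of the 103 shared ones 17 did. The 11 include Fmo2 (0.33 with WY14643) and Cry1 (-0.28), and, chosen after their values were seen, Cntrl, Ablim3, Fkbp5 and Trim24. Fkbp5, a co-chaperone induced by glucocorticoids, rose by 1.14 in WT livers (adjusted p = 0.0227) and by 1.88 in PPARα -/- livers (adjusted p = 0.000279), and had a change of 0.41 with WY14643 (adjusted p = 0.592). Nat8, an N-acetyltransferase of kidney and liver also named after its values were seen, rose by 1.95 in WT livers (adjusted p = 0.00114), with 0.26 in PPARα -/- livers and -0.80 with WY14643 (adjusted p = 0.302). Srebf1 fell with C18:3 in both genotypes and had a change of -0.22 with WY14643 (adjusted p = 0.779). Adam11, a metalloprotease-like membrane protein, was the 1 gene that fell with C18:3 (-1.18, adjusted p = 0.0275) and rose with WY14643 (1.06, adjusted p = 0.0374).

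A search of the promoters for the whole response element of PPARα gave no match among the called genes. The element is a pair of AGGTCA half-sites in the same direction with 1 base between them, known as DR1. It was searched with the fourth base of each half-site free, on both strands of 250 bases before and 50 after each RefSeq start site. It was present in 122 of 27025 genes (0.451%) and in 24 of the 5475 measured genes with a promoter (0.438%). It was present in 0 of the 109 risers and 0 of the 51 fallers that had a promoter in the table. With both half-sites spelled exactly, a subset of the first search, it was present in 13 genes (0.0481%) and again in none of the called genes. Both results refer to these letters in this window only, and 25 of the risers had no promoter in the table.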

How the data were processed

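Liver RNA of single mice was hybridised to Affymetrix mouse genome arrays. The deposited values are linear signal intensities that, per the labels and methods, the authors had made with GC-RMA (GCRMA 2.20), normalized across arrays and filtered on inter-quartile range. Here 51 control probesets were left out and the log2 of the intensity of the other 11412 was tested with limma 3.58.1 (lmFit and eBayes, R 4.3.3) in 1 fit of the 37 arrays of the later run, 8 groups without covariates. First-run arrays were fitted separately. P values were adjusted over all probesets by the Benjamini-Hochberg method, with an adjusted p under 0.05 as the threshold. A gene is its probeset with the highest mean among those with 1 symbol (6661 genes: 10279 probesets had 1 symbol, 406 several and 727 none). Where all arrays of a group were under a log2 signal of 5, the change is a bound against 5, and where both groups were, no fold is given.

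Genes are named where they were among the 10 largest rises or falls without overlap, among the 4 largest changes of a list, among genes the study discusses, or among the 5 largest differences between genotypes or triglycerides. List members given as not passing, and the genes said to be so, were chosen after their values were seen. The genes and lists were chosen with earlier results of these data known. The labels do not tie same-numbered mice together, so they were not paired. With 4 or 5 mice a group, the number of arrays limits the precision. On simulated data of the C18:3 comparison 38.8% of probesets with a log2 change of 0.5, 77.6% of those with 1 and 95.5% of those with 2 were recovered, over 11412 probesets. The simulated noise was normal and independent, with the same spread in every group. It held no outlying liver such as control2 mouse 1, so recovery in the real data may differ. Alternatives covered scaling, filters, array weights, the arrays fitted, the threshold and each array left out. Promoters are from the RefSeq table of GRCm38.p6.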

Additional observations from a re-analysis of the deposited data

Results flagged for a closer look

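Single livers stood apart from the rest of their group in 9 of 122 groups of values examined, where chance alone gives about 5%. In control2 mouse 1 the log2 signal was 2.94 for Acot4 (nearest liver 4.74), 8.18 for Abcg8 (9.39), 8.22 for Nr1i3 (9.21) and 8.68 for Txnip (9.09). Among the C18:3 livers, Fmo2 was at 5.24 in mouse 4 (6.63), Cd36 at 6.45 in mouse 1 (7.35) and Taf2 at 7.45 in mouse 2 (6.59). G0s2 was at 10.67 in control2 mouse 3 (10.15) and Ptprk at 6.40 in control2 mouse 2 (6.58).

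The change with C18:3 differed between WT and PPARα -/- livers by limma's test of the difference for 10 named genes. All 10 met the rule that names the largest differences between genotypes in that same test. Their number therefore follows from how they were chosen and is not a separate finding. Over all genes, 24 of 6661 passed the test of the difference (0.36%). The WT change minus the PPARα -/- change was 3.02 for G0s2 (adjusted p = 0.0169), 2.33 for Acot4 (0.0474), 2.04 for Chrna2 (0.0406), 2.03 for Elmod3 (0.0169) and 1.82 for Pctp (0.0169). Chrna2 was under the limit of low signal in all PPARα -/- livers, so its value is a fitted one. It was -2.72 for Chac1 (adjusted p = 0.01), -2.23 for Taf2 (0.0169), -1.80 for Ier2 (0.03), -1.70 for Megf9 (0.0406) and -0.75 for Ptprk (0.0409).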

How the results depend on the processing

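Among the 61 named genes followed through the alternatives, no call, with all arrays or under an alternative, changed its direction. The other called genes were not followed in this way. Changes that were not called could cross 0 with single arrays left out, as did Cd36 (-0.10 to 0.34) and Megf9 in WT livers (-0.29 to 0.07). Of the 134 higher and 61 lower genes with C18:3 in WT liver, array weights gave 270 and 186, the 9 arrays alone 11 and 1, an unadjusted p under 0.01 269 and 185, and an inter-quartile range of at least 0.5 left 38 lower. With single arrays left out the counts were 54 to 167 and 12 to 97. Genes called with both C18:3 and WY14643 (103 higher, 45 lower) were 196 and 135 with array weights, 11 and 1 with only the groups compared, 184 and 115 at the unadjusted threshold, 27 lower with the inter-quartile filter, and 44 to 120 and 8 to 72 with single arrays left out. The 24 genes that differed between genotypes were 41 with 16 added before log2, 60 with all 93 arrays, 52 with array weights, 41 with centred arrays, 39 with an intensity trend, 42 with the mean over probesets, 44 with quantile normalization, 9 with only the groups compared, 369 at an unadjusted p under 0.01 (250 with a fold of at least 1.5) and 3 to 51 with single arrays left out. Against C10:0 the 2 genes were 0 with only the groups compared, 76 and 28 at the unadjusted threshold without and with the fold, and 1 to 2 with single arrays left out. Against C18:2 the count of 0 was 1 with array weights, 26 and 7 at those thresholds, and 0 with every array left out. The cause of these shifts was not tested, but the fit of the compared groups alone has fewer samples, and the filters test fewer genes. The share of called probesets that were higher was 74.8%, against 62.7% with array weights, 94.4% with the 9 arrays alone and 82.3% with the inter-quartile filter.

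With the replicate number as a block, 1 gene differed from C10:0, and 13 of 51 named calls with C18:3 were lost (Abcg8, Acot8, Bhmt, Cidec, Cry1, Decr1, Hspd1, Nr1i3, Pex19, Slc16a5, Slc25a20, Spry4 and Srebf1). Same-numbered mice share only a number: the correlations of their deviations from the group means were -0.188 to -0.00202. The other scalings and filters cost 0 to 3 of the named calls each, and the 9 arrays alone cost 43.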
